A study of Mus musculus with 24 samples.

Results

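The loci described here are the copies of ERVK endogenous retroviruses other than the intracisternal A particles (IAP) in mouse naive embryonic stem cells (ESCs). A locus was taken where the deposited repeat name gave LTR as class and ERVK as superfamily and a family not starting with IAP, a choice that used no expression value. It took in 290584 loci of 258 families, out of 5147736 repeat loci of 1562 families in each table. Of these families, 36 are internal regions, whose names end in "int" (43265 loci), and 222 are long terminal repeats (LTRs) or parts with other names (247319 loci). Loci whose name gives ERVK only with a question mark (4185 loci of 2 families) were left out. The families with most loci were RLTR17B_Mm with 27369, RLTR20A4 with 11527 and RLTR31D_MM with 8270. Total RNA without ribosomal RNA was sequenced from 12 groups of 2 libraries, 24 in all, in 6 tables of FPKM, the number of fragments of a feature relative to its length and to the depth of the library, each normalised by the authors on its own.

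In 5 of the tables the cells were E14, a male ESC line, in medium with 2 kinase inhibitors and LIF. The first table sets cells with low mitochondrial membrane potential (low ΔΨm, the spontaneous quiescent ESCs or qESCs) beside cells with high ΔΨm, sorted from the same line by the dye TMRM. The others compare an siRNA pool against Mat2a with a non-targeting pool (siCtr), etomoxir as inhibitor of fatty acid oxidation (FAOi) with water, and a MYC inhibitor (MYCi) with DMSO. A further table holds low ΔΨm cells cultured with 25 or 50 µM S-adenosylmethionine (SAM), with no cells without SAM beside them. The last table compares Eed-/- with Eed fl/- ESCs, which were derived from preimplantation embryos of mice with a conditional Eed allele on a 129/S1 background and a Protamine-Cre and were grown in the same inhibitors and LIF on mouse embryonic fibroblast feeders, so that those lines differ from E14 in origin as well. The number of Eed lines sequenced is not given in the sources used here.

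ERVK elements are relatives of retroviruses that once entered the mouse germ line and spread by copying their RNA back into DNA. A full copy has an internal region between a pair of LTRs, which hold the promoter and the end of the transcript, and most copies have since recombined to a lone LTR. The early transposons (ETn) and their relatives MusD belong here and, with IAP, cause most of the insertions that still mutate mouse strains. In ESCs these elements are held silent by KRAB zinc finger proteins that bring TRIM28 and the histone methyltransferase SETDB1, by the HUSH complex, by chromatin assembly and remodelling factors and by DNA methylation, which UHRF1 and DNMT1 copy at replication. MAT2A makes SAM, the methyl donor for all of these methylations, and EED is a core subunit of Polycomb repressive complex PRC2, which methylates lysine 27 of histone H3. The paper describes naive mouse ESCs, the cells used here, as lacking DNA methylation and as leaning mostly on that histone mark to repress lineage genes. LTRs such as RLTR9 in ESCs and RLTR13D5 in trophoblast also serve as enhancers.

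Depth was estimated from the steps between low FPKM values at 27.2 to 64.2 M fragments over genes per library. A fragment that mapped to several places was divided among them and counting took no account of strand, so that values of near-identical copies are shares of common fragments, and a fragment within a repeat may come from a gene transcript that runs through it. Replicate libraries correlated with r = 0.978 to 0.995 over families. The targeted transcripts fell, Mat2a from 48.5 and 45.1 to 13.5 and 9.44 FPKM and Eed from 11.4 and 11.6 to 2.72 and 2.78 FPKM. Naive ESC markers were present in every library, with summed levels of 321 to 1211 FPKM. Summed fibroblast markers were 7.34 and 8.70 FPKM in the Eed fl/- and 3.98 and 4.77 FPKM in the Eed-/- libraries against at most 2.0 in the E14 tables. In bulk RNA, fewer cells of a kind and less RNA per cell cannot be told apart.

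Most copies carried few or no fragments. In a library, 38539 to 91945 of the loci were above 0, and 1922 to 2146 reached an FPKM of 1 in the sorted cells against 7673 to 12252 in the other tables, which were normalised separately. The loci together made up 2.0% to 4.0% of the FPKM summed over all repeats, and 685 to 1970 of them held 50% of that sum in a table. Transcription was concentrated in ETn and MusD sequences. The internal regions MMETn-int and ETnERV-int and the LTRs RLTR13G, ERVB4_1C-LTR_Mm, ERVB7_1-LTR_MM and RLTRETN_Mm, 5849 loci in all, held 22.7% to 34.7% of the members' sum.

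These sequences belong together in the list of repeats as well. Of 980 MMETn-int loci, 767 (78.3%) carry a number next to one of those LTR families, and 771 of 906 ETnERV-int loci (85.1%) do. MMETn-int was numbered beside RLTRETN_Mm 438 times and beside ERVB7_1-LTR_MM 120 times, whereas for ETnERV-int the counts were 139 and 325. RLTR13G and ERVB4_1C-LTR_Mm were beside both alike, with 314 and 313 MMETn-int loci and 366 and 331 ETnERV-int loci. Whether consecutive numbers are neighbours in the genome could not be checked without coordinates. If they are, families of this group can share transcripts, so they were not taken as independent measurements.

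**Figure D1:**
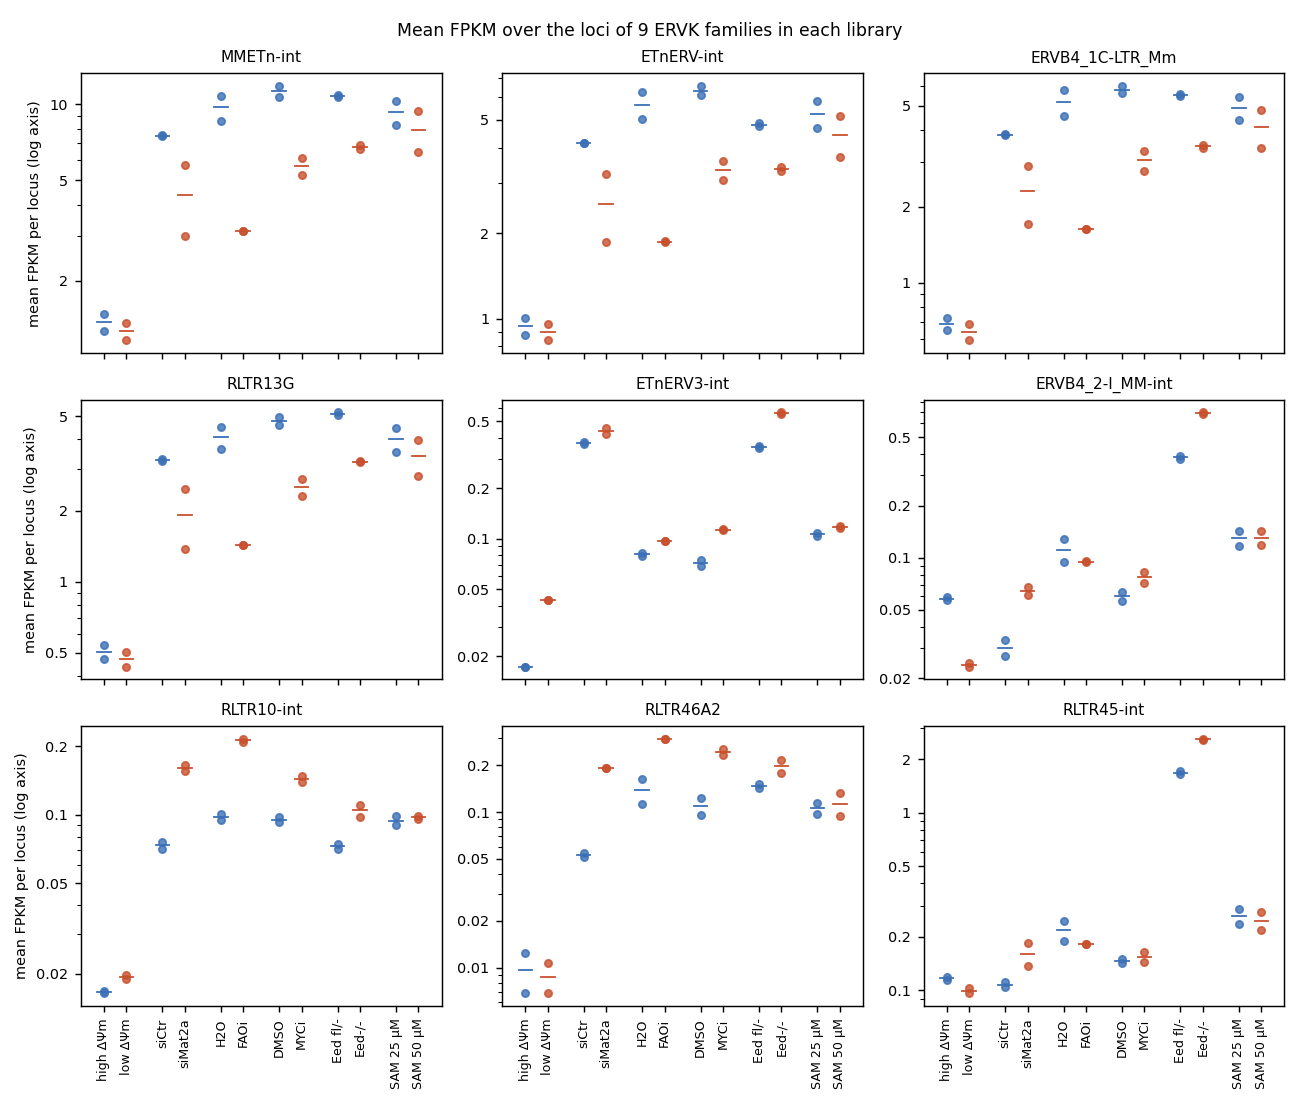
Mean FPKM over the loci of 9 ERVK families in each of the 24 libraries, on a log axis, with first groups (controls; SAM 25 µM) in blue, second groups in orange and bars at the mean of 2 libraries. MMETn-int lay at 8.59 and 10.8 with water and at 3.15 and 3.16 with FAOi, while ETnERV3-int and RLTR45-int were highest in the Eed table.

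Families of 10 or more loci whose average FPKM reached 0.01 in 2 or more libraries were compared on log2(mean FPKM + 0.01) with limma, and p was adjusted by the Benjamini-Hochberg method over all repeat families. A fold on this scale understates the change of low families. There were 7 families of fewer than 10 loci (23 loci), which were in no test, and 237 to 251 families passed both criteria in a table. Single loci at an FPKM of at least 1 in 2 or more libraries were compared on log2(FPKM + 0.5), adjusted over all repeat loci. A locus could enter through either group alone, so that counts of loci by the sign of the fold are tilted towards the group where a family is higher. The deposited scale was set by all features, repeats included, and the median gene lay lower in some second groups. Rescaling each library to its median gene raised log2 folds by 0.75 with siMat2a, 0.79 with FAOi, 0.77 with MYCi and 0.44 between the SAM doses. The shift was -0.05 for qESCs and -0.12 for Eed-/- cells. A rescaled fold is one relative to the median gene, and it is given wherever the scale turned a direction.

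On the deposited scale the median ERVK family moved little. It lay at -0.03 in qESCs, 0.17 with siMat2a, 0.08 with FAOi, 0.15 with MYCi, 0.04 in Eed-/- cells and 0.01 between the SAM doses, where the medians of all repeat families were -0.01, 0.11, 0.09, 0.13, 0.06 and 0.01. Relative to the median gene the ERVK medians were -0.07, 0.85, 0.80, 0.85, -0.07 and 0.40. The sign of the median thus turned only in the Eed lines. What each comparison showed was movement of single families and groups around that median.

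**Figure D2:**
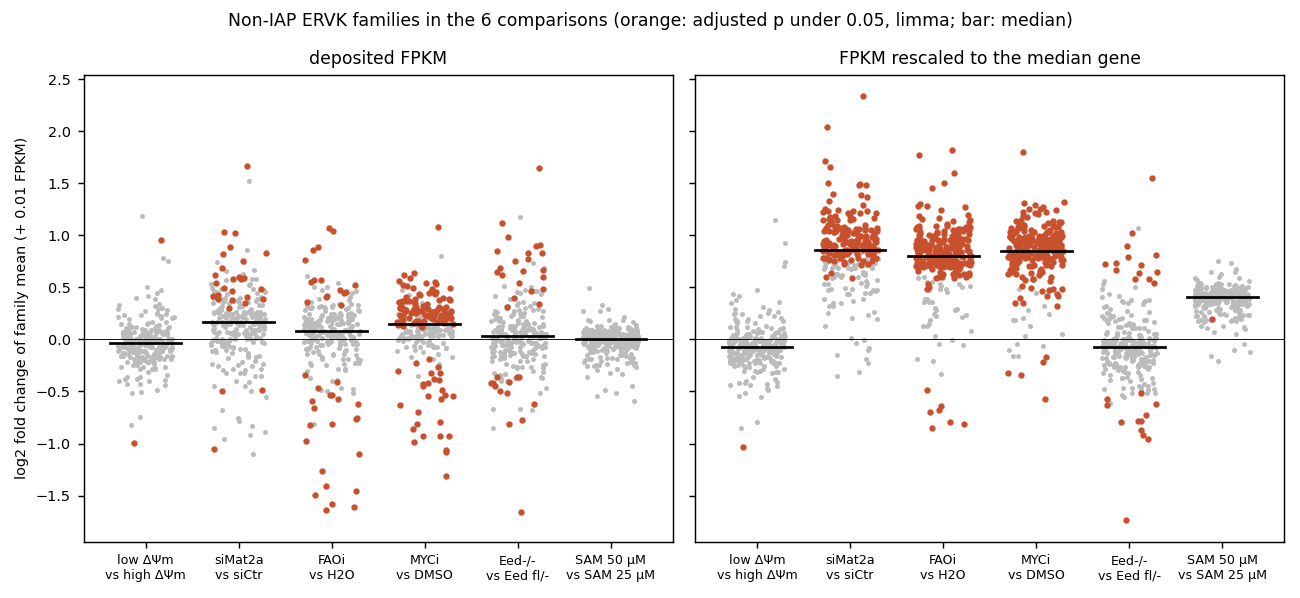
Log2 fold change of each non-IAP ERVK family in the 6 comparisons on the deposited scale (left) and rescaled to the median gene (right), with families past an adjusted p of 0.05 in orange and the median as a bar. The medians with siMat2a, FAOi and MYCi lay at 0.17, 0.08 and 0.15 on the left and at 0.85, 0.80 and 0.85 on the right, and with FAOi the families farthest below 0 lay below 0 on both sides.

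In qESCs hardly any ERVK family passed the test against cells with high ΔΨm. Of 237 families, 1 was higher and 1 lower, where the background over all repeat families was 0.361% higher and 0.216% lower. Before adjustment, the limma p of 19 families with a rise and of 26 with a fall lay below 0.05. In simulated data of this table, 37 of 100 families changed by 0.5 on the log2 scale were recovered. Of 100 changed by 1, 81 were, so that smaller changes can be missed here. ETnERV3-int, an internal region of the ETn kind, lay at 0.0173 and 0.0173 FPKM with high ΔΨm and at 0.0429 and 0.0431 with low ΔΨm. The groups did not overlap, and the log2 fold was 0.96 (SE 0.06, n = 2 per group, limma adjusted p = 0.0286). ERVB4_2-I_MM-int, an internal region of an ERVB family, lay at 0.0568 and 0.0594 with high and at 0.0247 and 0.0234 with low ΔΨm. It was lower by a log2 fold of -0.999 (SE 0.06, limma adjusted p = 0.0291). Each call was lost without any 1 of the 4 libraries, when 0 families were called with limma and 10 to 20 in a direction had an unadjusted p under 0.05. Scaling by the ERCC spike-in RNA kept both folds, at 0.99 and -0.96, while after rescaling to the median gene ETnERV3-int had an adjusted p of 0.0695.

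The abundant families did not differ with ΔΨm beyond the spread of the libraries. MMETn-int was at 1.26 and 1.48 FPKM with high ΔΨm and at 1.36 and 1.16 with low ΔΨm, and the groups overlapped (log2 fold -0.12, limma adjusted p = 0.784). ETnERV-int was at 0.877 and 1.01 against 0.958 and 0.84, which overlapped too. Among families that missed the threshold, SRV_MM-int stood apart at 0.158 and 0.173 against 0.286 and 0.283 (log2 fold 0.75, limma adjusted p = 0.0852). RLTR44-int was at 0.0589 and 0.0587 against 0.0407 and 0.0364 (limma adjusted p = 0.11), and none of the 8 RLTR44 and RLTR45 families had a fold above 0 (median -0.23), though none passed the test.

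Single loci could differ more than any family. Of 2182 loci tested between low and high ΔΨm, 2 were higher and 1 lower, with backgrounds of 0.121% and 0.00956% over all repeat loci. A copy of RLTR20A4, HOMER1744395, was at 0.0719 and 0 FPKM with high ΔΨm and at 15.5 and 15.4 with low ΔΨm (log2 fold 4.898, SE 0.25, limma adjusted p = 0.00956). A copy of RLTR22_Mur, HOMER3183113, was listed at 0 in both libraries with high ΔΨm and was at 5.96 and 5.93 in qESCs (limma adjusted p = 0.0351). An RMER16-int locus, HOMER1243377, went the other way, from 14.5 and 15.8 to 1.62 and 1.498 (log2 fold -2.92, limma adjusted p = 0.0238). These calls were lost without either library of low ΔΨm, when 0 of 1934 and 0 of 1950 loci passed with limma, with 42 and 43 higher and 186 and 146 lower at an unadjusted p under 0.05. Without library 1 of high ΔΨm 3 loci were higher and 0 lower, with 81 and 65 at an unadjusted p under 0.05, so that the RMER16-int call was lost there too. Markers of the 2-cell embryo moved with this comparison, all 8 of 8 higher in qESCs, with sums of 0.766 and 1.01 against 123 and 109 FPKM. Of 6 primitive endoderm markers 2 were higher, of 4 trophoblast markers tested 1 was, and of 8 naive ESC markers 1 was, and of the 2 fibroblast markers tested 1 was higher and 1 lower. Backgrounds over all genes tested were 14% higher and 6.45% lower. The part of the markers in the locus changes was not tested.

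With Mat2a depleted, about as large a share of ERVK families as of all repeat families was higher on the deposited scale. Of 251 families, 25 were higher and 3 lower, or 9.96% and 1.2%, against backgrounds of 8.9% and 2.21% of all repeat families. After rescaling, 163 were higher and 0 lower with limma, and 188 and 0 had an unadjusted p under 0.05. RLTR46A2, an LTR family, rose most, from 0.0548 and 0.0518 FPKM with siCtr to 0.191 and 0.192 with siMat2a (log2 fold 1.67, SE 0.05, n = 2 per group, limma adjusted p = 0.017). RLTR10-int rose from 0.0707 and 0.0756 to 0.165 and 0.155 (log2 fold 1.03, SE 0.07, limma adjusted p = 0.0405). The replicates of both families lay far closer together than the groups.

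ERVB4_2, which went down as an internal region in qESCs, went up here. Its LTR ERVB4_2-LTR_MM rose from 0.0355 and 0.0401 to 0.0946 and 0.0801 (log2 fold 1.02, limma adjusted p = 0.0441) and ERVB4_2-I_MM-int from 0.0333 and 0.027 to 0.0608 and 0.0675 (log2 fold 0.89, SE 0.12, limma adjusted p = 0.045). By group, 4 of 13 MMERVK10 and RLTR10 families, 4 of 23 RLTR13 families, 3 of 8 RLTR44 and RLTR45 families and 6 of 42 RMER families rose, and none of these groups had a family that passed as lower. Folds below 0 that did not pass were found in 2 of the 13, 6 of the 23, 2 of the 8 and 10 of the 42. RLTR44A, for one, rose from 0.0585 and 0.0588 to 0.117 and 0.106 (log2 fold 0.82, limma adjusted p = 0.0441). These families rose on the rescaled values as well, with log2 folds of 1.65 for ERVB4_2-LTR_MM, 1.49 for ERVB4_2-I_MM-int and 1.48 for RLTR44A.

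The 3 lower families depended on scale or on 1 copy. RLTR49 fell from 0.993 and 1.01 to 0.562 and 0.406 (log2 fold -1.05, SE 0.18, limma adjusted p = 0.0497, rescaled -0.31), and a single locus, HOMER1792001, held 48.3% of its sum and lay at 540 and 548 with siCtr against 169 and 84.0 with siMat2a. ERVB7_3-LTR_MM and ERVB4_3-I_MM-int both had -0.49, which turned to 0.20 and 0.13 relative to the median gene, and without its highest locus, with 80.1% of its sum, ERVB4_3-I_MM-int had 1.19. The abundant ETn families missed the threshold. MMETn-int lay at 7.47 and 7.56 with siCtr and at 5.74 and 3.01 with siMat2a (log2 fold -0.85, limma adjusted p = 0.206, rescaled -0.10), and ETnERV-int at 4.14 and 4.15 against 3.22 and 1.86 (log2 fold -0.76, rescaled -0.01). The lowest values came from the second siMat2a library, whose scale factor was 0.643 against 0.931 in the first.

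No family call with siMat2a held without siCtr library 1, siCtr library 2 or siMat2a library 2, when 0 families passed with limma with 49, 58 and 66 higher and 13, 9 and 23 lower at an unadjusted p under 0.05. Without siMat2a library 1, 8 were higher and 19 lower. Of 9080 single loci, 0 were higher and 0 lower with limma, with a background of 0% in both directions, and 1108 and 1058 had an unadjusted p under 0.05. This count of 0 does not show that no locus changed, since the locus test missed strongly changed loci in simulated data of this table. Without siCtr library 1 or 2, 436 and 389 loci were higher and 38 and 32 lower, and without siMat2a library 1 or 2, 7 and 2 were higher and 349 and 24 lower. Within RLTR10-int, 47 of 54 loci tested had a fold above 0, against 170198 of 340618 over all repeat loci, but a locus could enter this count through the siMat2a libraries alone. The 2-cell embryo markers were higher here too, 8 of 8, with sums of 23.0 and 21.6 against 293 and 170 FPKM. So were 4 of 4 fibroblast markers tested, with sums of 0.357 and 0.43 against 2.01 and 1.24 FPKM, and 3 of 6 primitive endoderm markers, with 1.03 and 1.12 against 3.6 and 2.26 FPKM. Of 4 trophoblast markers tested 2 were higher and 1 lower, and of 8 naive ESC markers 4 were lower. Backgrounds over all genes tested were 13.1% higher and 36.8% lower. The part of the markers in the family changes was not tested.

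The low ΔΨm cells and the Mat2a-depleted cells were set against each other by testing the difference of their folds. Of 237 families, the fold in qESCs was above that with siMat2a for 5 and below it for 28, against backgrounds of 2.02% and 5.13%. ERVB4_2-I_MM-int differed most clearly, by -1.89 (SE 0.13, n = 2 per group, limma adjusted p = 0.00455, rescaled -2.53). RLTR46A2 differed by -1.73 (limma adjusted p = 0.0187, rescaled -2.44), having risen with siMat2a and not passed in qESCs. MMERVK10D3_LTR differed by -1.35 (limma adjusted p = 0.0108). ETnERV3-int, higher in qESCs, differed by 0.73 (limma adjusted p = 0.0151), which became -0.042 relative to the median gene. For MMETn-int the difference of 0.73 was within the error (limma adjusted p = 0.274). Without 1 library, 1 to 66 families passed.

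Inhibition of fatty acid oxidation lowered the most abundant of the members, MMETn-int, ETnERV-int and the LTRs numbered beside them. Of 249 families, 16 were higher and 22 lower with FAOi, where the backgrounds were 7.38% and 10% of all repeat families. MMETn-int fell from 8.59 and 10.8 FPKM with water to 3.15 and 3.16 with FAOi (log2 fold -1.61, SE 0.26, n = 2 per group, limma adjusted p = 0.0311). ETnERV-int fell from 5.05 and 6.29 to 1.86 and 1.88 (log2 fold -1.59, SE 0.20, limma adjusted p = 0.0259). Both treated libraries lay below both controls, and relative to the median gene the folds were -0.82 and -0.79. Of the 5 families with ETn names 3 were lower and none higher, and RLTRETN_Mm among the 3 turned to 0.13 after rescaling, while ETnERV2-int and ETnERV3-int had folds of 0.067 and 0.24 and missed the threshold.

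The LTRs numbered beside these internal regions were lower too. ERVB4_1C-LTR_Mm went from 4.54 and 5.79 to 1.64 and 1.63 (log2 fold -1.64, SE 0.20, limma adjusted p = 0.0259, rescaled -0.85), RLTR13G from 3.63 and 4.52 to 1.44 and 1.43 (log2 fold -1.49, SE 0.18, rescaled -0.70) and ERVB7_1-LTR_MM from 1.23 and 1.55 to 0.513 and 0.48 (log2 fold -1.46, SE 0.14, rescaled -0.67). RNERVK23-int, another internal region, fell from 0.82 and 1.09 to 0.374 and 0.402 (log2 fold -1.27, rescaled -0.48). ERVB4_1B-LTR_MM fell from 0.42 and 0.553 to 0.176 and 0.175 (log2 fold -1.41, rescaled -0.64), but 1 locus held 74.1% of its sum. These 7 families were all that passed as lower on the rescaled values, where 204 passed as higher. The remaining lower calls were smaller, and RLTRETN_Mm (0.221 and 0.246 against 0.146 and 0.149, log2 fold -0.62) and RLTR44-int (-0.59) turned to 0.13 and 0.15 after rescaling. Of all 22 lower families, 12 stayed below 0 and 10 turned.

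A smaller set went up with FAOi on both scales. RLTR10-int rose from 0.101 and 0.0947 to 0.208 and 0.216 (log2 fold 1.04, SE 0.08, n = 2 per group, limma adjusted p = 0.0226, rescaled 1.78). RLTR46A2 rose from 0.162 and 0.113 to 0.296 and 0.295 (log2 fold 1.07, SE 0.17, limma adjusted p = 0.031, rescaled 1.82). BGLII_C rose from 0.119 and 0.115 to 0.211 and 0.23 (log2 fold 0.86, limma adjusted p = 0.0226, rescaled 1.60). By group, 3 of 13 MMERVK10 and RLTR10 families were higher and 1 lower, while 1 of 21 ERVB families was higher and 6 lower. The lower family of the former group, RLTR10F, and 1 of the latter 6, ERVB2_1A-I_MM-int, lay above 0 after rescaling, at 0.22 and 0.36. Without H2O library 1, 34 families were higher and 33 lower, without H2O library 2, 15 and 20, and without either FAOi library 0 passed with limma, with 23 and 15 higher and 24 and 22 lower at an unadjusted p under 0.05.

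The same split was seen among single copies. Of 12009 loci tested, 234 were higher and 535 lower with FAOi, with backgrounds of 1.89% and 1.4% of all repeat loci. The share of ERVK loci that were lower was thus 4.45% and that of higher ones 1.95%. MMETn-int gave 139 of the lower loci (of 286 tested, 272 of them with a fold below 0), ERVB4_1C-LTR_Mm 87 of 123, ETnERV-int 63 of 151, RLTR13G 54 of 121 and ERVB7_1-LTR_MM 38 of 95. Among the higher loci RLTR10-int gave 28 of 101 tested (92 with a fold above 0), RLTR20A4 27 of 623 and RLTR17B_Mm 23. Over all repeat loci tested, 238639 of 436384 had a fold above 0. The counts by sign are not separate support for the family folds, since loci could enter through the FAOi or the water libraries alone and copies share fragments. Of the 535 lower loci, 322 carried a number next to another lower locus, against 28 of 234 higher ones, so that many lower loci lie side by side in the list. Without H2O library 1 or 2, 984 and 488 loci were higher and 881 and 479 lower, and without FAOi library 1 or 2 no locus passed with limma, with 316 and 266 higher and 1181 and 1237 lower at an unadjusted p under 0.05. Rescaled to the median gene, 2928 loci were higher and 382 lower.

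**Figure D3:**
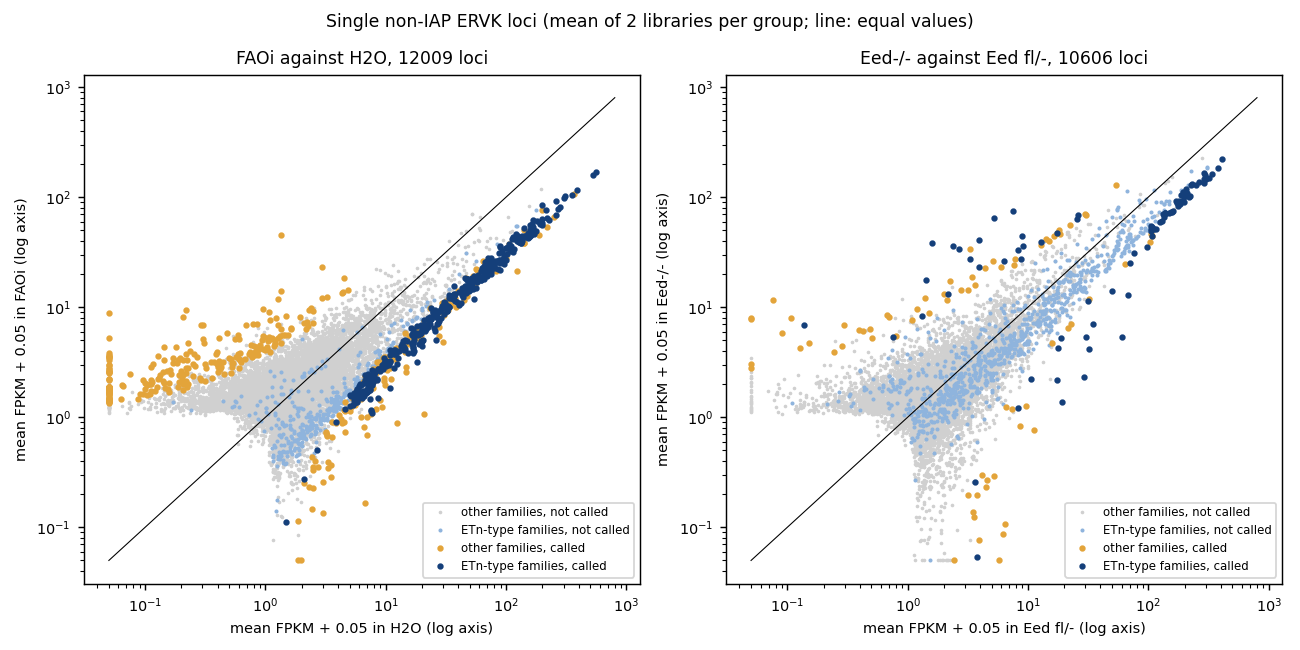
Mean FPKM + 0.05 of each locus tested in the first group (x axis) and the second (y axis), both log, for FAOi against water (12009 loci) and Eed-/- against Eed fl/- (10606 loci), with MMETn-int, ETnERV-int and their LTRs in colour and the line of equality. With FAOi the coloured loci mostly lay below the line on the deposited scale, 272 of 286 MMETn-int loci with a fold below 0, and in the Eed lines they lay on both sides, 291 of 364 MMETn-int loci below it.

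Marker lists moved with FAOi too: all 8 naive ESC markers and all 5 markers of the 2-cell embryo that could be tested were lower, the latter with sums of 6.51 and 9.67 against 0.929 and 1.39 FPKM. After rescaling 8 and 4 were lower. Of the primitive endoderm markers 4 of 5 tested were higher on both scales, with sums of 1.02 and 1.09 against 4.16 and 3.95 FPKM, and of the trophoblast markers 3 of 4 tested were higher and 1 lower, with sums of 5.94 and 6.87 against 6.42 and 6.498 FPKM. Of the fibroblast markers 1 of 3 tested was lower. Backgrounds over all genes tested were 13.9% higher and 51.3% lower on the deposited scale. The part of all these markers in the ERVK changes was not tested. The highest single locus was MMETn-int HOMER1633103, at 501 and 615 with water and 165 and 170 with FAOi. ERVB4_1B-LTR_MM HOMER1767740 went from 214 and 289 to 64.3 and 67.7, and RLTR19-int HOMER4676121 from 194 and 247 to 54.3 and 51.9. All 3 lay lower in both treated libraries than in both controls. A few copies with low control levels rose, and the largest called change was in RLTR20A4 HOMER3702069, from 1.94 and 0.666 to 42.6 and 47.1 (log2 fold 4.75, SE 0.38, limma adjusted p = 0.0412). Another 3 RLTR20A4 copies with nearby numbers, HOMER3702110, HOMER3702111 and HOMER3702113, went from at most 0.339 to between 7.22 and 10.5. Downwards, RLTR11A HOMER3518367 went from 18.6 and 23.1 to 1.20 and 0.843 (log2 fold -3.81).

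With MYC inhibited, many ERVK families were a little higher on the deposited scale, as were many repeat families at large. MMETn-int and ETnERV-int were lower. Of the 5 families with ETn names 2 were higher, ETnERV2-int and ETnERV3-int, and 3 lower, of which RLTRETN_Mm turned to 0.35 after rescaling. Of 250 families, 96 were higher and 28 lower, with backgrounds of 31.6% and 14% of all repeat families, beside 38.4% and 11.2% of the ERVK families. MMETn-int fell from 11.8 and 10.7 FPKM with DMSO to 5.24 and 6.15 with MYCi (log2 fold -0.98, SE 0.17, n = 2 per group, limma adjusted p = 0.0269, rescaled -0.22). ETnERV-int fell from 6.59 and 6.11 to 3.07 and 3.59 (log2 fold -0.93, SE 0.13, limma adjusted p = 0.0202, rescaled -0.16). ERVB4_1C-LTR_Mm and RLTR13G had -0.93 each (rescaled -0.16 for both), and ERVB4_1B-LTR_MM had -1.31 (0.461 and 0.424 against 0.162 and 0.182, rescaled -0.57). RLTR3_Mm was lower at 0.113 and 0.102 against 0.234 and 0.236 (log2 fold -1.06), but 1 locus held 88.0% of its sum and the fold was 0.85 without it.

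Higher families with MYCi were spread over LTR groups of modest level. They were 14 of 20 RLTR17 and RLTR20 families with none lower, 18 of 42 RMER families with 1 lower, 10 of 23 RLTR13 families with 2 lower, 9 of 13 MMERVK10 and RLTR10 families with 1 lower and 5 of 7 BGLII families with none lower. Of these lower ones, RMER16A2, RLTR13A2 and RLTR10E turned to 0.42, 0.57 and 0.32 after rescaling, and RLTR13G stayed below 0. RLTR46A2 rose most, from 0.124 and 0.0958 to 0.253 and 0.232 (log2 fold 1.08, SE 0.14, limma adjusted p = 0.0199, rescaled 1.80). ETnERV3-int rose from 0.0692 and 0.0748 to 0.112 and 0.114 (log2 fold 0.59, SE 0.05, limma adjusted p = 0.0189, rescaled 1.28), unlike its relatives MMETn-int and ETnERV-int. RLTR10-int rose from 0.0927 and 0.0972 to 0.139 and 0.148 (log2 fold 0.55, rescaled 1.25). After rescaling, 228 families were higher and 5 lower. Of the 28 families lower on the deposited scale 10 stayed below 0 and 18 turned, and RLTR44-int, RLTR9E and RLTRETN_Mm, at -0.54, -0.39 and -0.38 before it, turned to 0.18, 0.35 and 0.35. Without any 1 of the 4 libraries 0 families passed with limma, while 69 to 100 had an unadjusted p under 0.05 upwards and 25 to 29 downwards.

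Of 12712 single loci, 27 were higher and 45 lower with MYCi, with backgrounds of 0.166% and 0.311%. MMETn-int gave 11 of the lower loci, RLTR19-int 8 and ETnERV-int 5. RLTR11A HOMER1703744 was among the higher loci, at 1.33 and 1.34 with DMSO and 18.4 and 16.4 with MYCi, and RLTR20A4 HOMER3702069 was listed at 0 in both DMSO libraries and lay at 9.69 and 13.8 with MYCi (limma adjusted p = 0.0432). RLTR11A HOMER3518367 went down from 28.7 and 24.4 to 3.52 and 4.20 (log2 fold -2.63) and MLTR11A HOMER3523416 from 12.2 and 10.9 to 0.898 and 1.48 (log2 fold -2.85). Without DMSO library 1 or 2, 191 and 411 loci were higher and 43 and 157 lower, and without MYCi library 1 or 2, 1 and 2 were higher and 29 and 134 lower. The markers of naive ESCs were lower with MYCi in 8 of 8 cases, and those of the 2-cell embryo in 6 of 6 tested, with sums of 8.06 and 7.58 against 2.78 and 3.30 FPKM. After rescaling 7 and 3 were lower. Of the trophoblast markers 2 of 3 tested were lower and of the primitive endoderm markers 1 of 5 was higher, and of the 2 fibroblast markers tested none passed. Backgrounds over all genes tested were 7.89% higher and 57.8% lower on the deposited scale. The part of the markers in the ERVK changes was not tested.

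The inhibitors of fatty acid oxidation and of MYC were compared family by family. Of the families called in both tables, 20 were lower in both, which is 90.9% of those lower with FAOi and 71.4% of those lower with MYCi, and 13 were higher in both, which is 81.2% and 13.5%. After rescaling, 9 of those 20 lay below 0 in both tables and 9 above 0 in both. Over 249 families the folds correlated with Pearson r = 0.880 and Spearman rho = 0.787, and 209 had the same sign. A positive r was not particular to this pair, since folds with siMat2a gave r = 0.742 with those of FAOi and 0.757 with those of MYCi, and folds between the SAM doses, where no family passed, gave 0.611 and 0.662. It was not general either, since folds in the Eed lines gave 0.252 and 0.269 and those in qESCs -0.032 and -0.028. This is a description across families, which can share transcripts and are not taken as independent, and the tables share no libraries. The overlap and r over all repeat families are not given here, so the likeness cannot be read as particular to these members. The difference of the folds passed for 0 of 249 families with limma, with backgrounds of 0% and 0.0693%, and 7 were above and 23 below 0 at an unadjusted p under 0.05. The larger fall with FAOi gave a difference of -0.62 for MMETn-int (limma adjusted p = 0.532) and of -0.65 for ETnERV-int (limma adjusted p = 0.407), and RLTR10-int had 0.49 (limma adjusted p = 0.220). Relative to the median gene 4 differences passed, ERVB4_1C-LTR_Mm at -0.69, ETnERV-int at -0.63, MMETn-int at -0.60 and RLTR13G at -0.54.

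**Figure D4:**
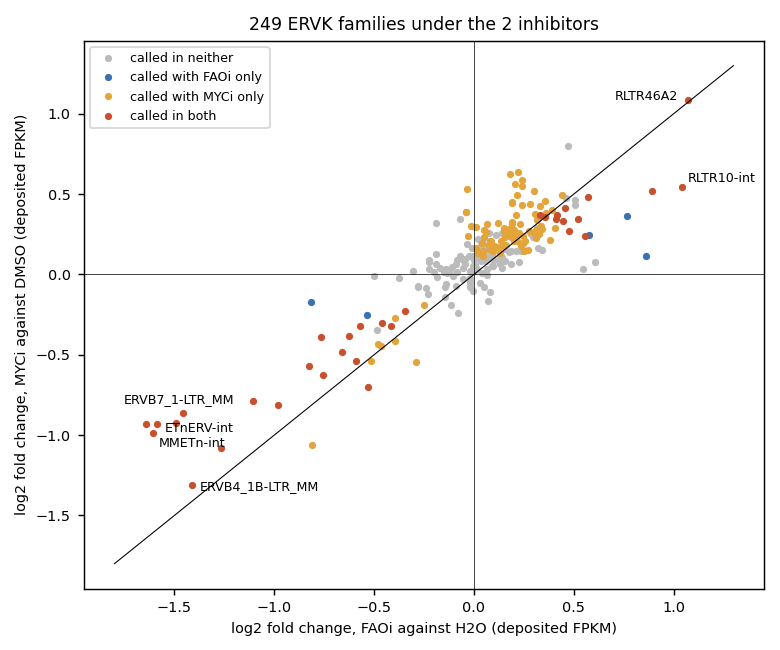
Log2 fold change with FAOi (x axis) against that with MYCi (y axis) for 249 non-IAP ERVK families on the deposited scale, coloured by the comparison in which a family passed. MMETn-int lay at -1.61 and -0.98 and RLTR46A2 at 1.07 and 1.08 (-0.82 and -0.22, and 1.82 and 1.80, relative to the median gene), and 209 families had the same sign in both.

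Families of the RLTR44, RLTR45 and MMERVK10 kinds, among others, were higher in Eed-/- than in Eed fl/- cells, and a smaller set was lower. The deletion and differences between the derived lines cannot be told apart here. Of 251 families, 22 were higher and 13 lower in Eed-/- cells, against backgrounds of 4.55% and 2.62% of all repeat families. Among the higher ones was much of the RLTR44 and RLTR45 group, with 5 of 8 families higher, none lower and a median fold of 0.58 (rescaled 0.47). RLTR44B rose from 0.0225 and 0.0213 FPKM in Eed fl/- to 0.0543 and 0.0644 in Eed-/- cells (log2 fold 1.12, SE 0.11, n = 2 per group, limma adjusted p = 0.0334). RLTR44-int rose from 0.104 and 0.109 to 0.19 and 0.209 (log2 fold 0.85, SE 0.07, limma adjusted p = 0.0299), and RLTR45-int from 1.65 and 1.71 to 2.57 and 2.61 (log2 fold 0.62, SE 0.08, limma adjusted p = 0.0411). Their rescaled folds were 1.02, 0.74 and 0.51, where RLTR45-int had an adjusted p of 0.0816. RLTR45-int was also far higher in both Eed groups than elsewhere, at 0.0967 to 0.285 in the tables of E14 cells, which were normalised separately.

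Further internal regions rose in Eed-/- cells. ERVB4_2-I_MM-int went from 0.375 and 0.391 to 0.681 and 0.697 (log2 fold 0.83, SE 0.06, limma adjusted p = 0.0233, rescaled 0.72) and MMERVK10C-int from 0.203 and 0.204 to 0.309 and 0.317 (log2 fold 0.60, SE 0.04, limma adjusted p = 0.0299, rescaled 0.48). MMERVK10C is known as a target of silencing by TRIM28 and SETDB1. Of its 266 loci tested 219 had a fold above 0, against 172861 of 370380 over all repeat loci, and 1 passed as higher. A locus could enter this count through the Eed-/- libraries alone, and similar copies share fragments, so that the count is no separate measure of the rise. ETnERV3-int rose from 0.349 and 0.355 to 0.566 and 0.549 (log2 fold 0.65, SE 0.05, limma adjusted p = 0.0299, rescaled 0.54). In all 3 of 13 MMERVK10 and RLTR10 families were higher and 1 lower, and 12 of the 13 had a fold above 0 on both scales. RLTR12F had the largest fold, from 0.0226 and 0.0242 to 0.0944 and 0.0948 (log2 fold 1.65, SE 0.07, limma adjusted p = 0.0118), with 44.8% of its sum in 1 locus.

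The 13 lower families in Eed-/- cells came from many groups. Among them were RLTR9A4, RLTR9A3A and RLTR9E, MMERVK9C_I-int and MMERVK9E_I-int, and 8 families of other kinds. MMERVK9C_I-int fell from 0.174 and 0.177 to 0.111 and 0.111 (log2 fold -0.62, SE 0.04, limma adjusted p = 0.0233, rescaled -0.73). RLTR9 families were lower in 3 of 13 cases and higher in none, though RLTR9A4, with the largest fold (0.0625 and 0.0429 against 0.00779 and 0.0116, log2 fold -1.66), had 83.0% of its sum in 1 locus. ETnERV2-int fell from 0.0698 and 0.072 to 0.0513 and 0.0498 (log2 fold -0.42). The abundant ETn families lay lower without passing on the deposited scale. MMETn-int was at 10.7 and 10.9 against 6.89 and 6.64 (log2 fold -0.67, limma adjusted p = 0.0784) and ETnERV-int at 4.75 and 4.88 against 3.32 and 3.43 (log2 fold -0.51, limma adjusted p = 0.0776). Relative to the median gene they passed, at -0.79 (limma adjusted p = 0.0245) and -0.63 (limma adjusted p = 0.0377). Without any 1 of the 4 Eed libraries 0 families passed with limma, and 36 to 61 were higher and 22 to 45 lower at an unadjusted p under 0.05.

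Among 10606 single loci, 69 were higher and 93 lower in Eed-/- cells, with backgrounds of 0.227% and 0.198%. The ERVK shares were 0.651% and 0.877%. RLTR45-int gave 18 higher and 4 lower loci of 417 tested, and MMETn-int 7 higher and 26 lower of 364. Copies of a family thus moved both ways. An ETnERV-int copy, HOMER1473636, rose from 1.63 and 1.45 to 37.1 and 39.9 (log2 fold 4.26, SE 0.18), against the direction of its family, and RMER16-int HOMER2410793 went from 0 and 0.0519 to 12.2 and 11.1 (log2 fold 4.53). MRLTR33 HOMER2711165 and RLTR49 HOMER2711164, with consecutive numbers, appeared together, the former listed at 0 in both Eed fl/- libraries and at 8.31 and 7.44 in Eed-/-, the latter at 0.114 and 0 against 7.39 and 8.54. RLTR20A4 HOMER324431 was at 4.95 and 6.53 in Eed fl/- cells and listed at 0 in both Eed-/- libraries. Of the called loci, 47 of the 69 higher and 54 of the 93 lower carried a number next to another one called in the same direction. Without any 1 of the 4 Eed libraries 0 loci passed with limma, with 519 to 1291 higher and 741 to 1613 lower at an unadjusted p under 0.05.

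Markers of extraembryonic cells moved with the Eed comparison. All 7 trophoblast markers tested were higher (sums of 6.07 and 6.28 against 36.0 and 45.5 FPKM), as were all 6 of primitive endoderm (4.90 and 5.50 against 26.7 and 27.7) and all 8 of the 2-cell embryo (82.9 and 84.3 against 220 and 234). Of the fibroblast markers 5 of 8 could be tested, with 3 higher and 2 lower, and Col3a1, Dcn and Lum were below 0.1 FPKM in all libraries of that table. Among 8 naive ESC markers 3 were higher and 3 lower. Backgrounds over all genes tested were 24.2% higher and 12.1% lower. The part of the marked cell types in the ERVK changes was not tested. IAP, the families set aside, had 6 of 25 higher and 0 lower families in Eed-/- cells, and 43 higher and 1 lower of 1101 loci, a difference from the non-IAP loci that was not tested.

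Between the SAM doses no ERVK family passed the test on the deposited scale. At 50 against 25 µM, 0 of 250 families were higher and 0 lower with limma, with a background of 0% in both directions, and 3 and 5 had an unadjusted p under 0.05. MMETn-int was at 10.3 and 8.27 FPKM at 25 µM and at 9.39 and 6.49 at 50 µM, and the groups overlapped (log2 fold -0.24, limma adjusted p = 0.918, rescaled 0.20, where it was the 1 family to pass). The largest folds were 0.33 for ERVB2_1-I_MM-int and -0.59 for ERVB7_2-LTR_MM, both with a limma adjusted p of 0.835. Of 11538 loci 0 passed with limma in either direction, with a background of 0%, and 126 and 102 had an unadjusted p under 0.05. A comparison with low ΔΨm cells without SAM was not possible within this table.

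Some families were called in 3 comparisons. RLTR46A2, RLTR10, RLTR10-int, RLTR10B, MLTR31D_MM, RLTR13D3A and RMER13A1 were higher with siMat2a, FAOi and MYCi. ETnERV3-int was higher in qESCs, with MYCi and in Eed-/- cells, although with FAOi it lay at 0.0973 and 0.0975 against 0.0793 and 0.0826 and missed the threshold (limma adjusted p = 0.101). BGLII_A and RLTR13C3 were higher with siMat2a, MYCi and in Eed-/- cells. RLTR9E, an LTR family of the kind known from ESC enhancers, was lower with FAOi, MYCi and in Eed-/- cells, but relative to the median gene its folds with the inhibitors were -0.01 and 0.35. RLTR49 and ERVB4_3-I_MM-int were lower with siMat2a, FAOi and MYCi, but rescaled folds were -0.31, 0.029 and 0.13 for RLTR49 and 0.13, -0.18 and 0.048 for ERVB4_3-I_MM-int.

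Single loci showed patterns that their families did not. RLTR20A4 HOMER1744395, which rose in qESCs, lay at 2.91 and 3.80 FPKM with siCtr and 31.6 and 19.9 with siMat2a, and at 7.42 and 7.74 in Eed fl/- and 24.5 and 24.2 in Eed-/- cells. With FAOi and MYCi it stayed between 0.142 and 1.001, the levels of treated and control libraries alike. RLTR22_Mur HOMER3183113 was also at 2.19 and 2.08 with siMat2a against 0.217 and 0.223 and was listed at 0 in every library of the FAOi and MYCi tables. Both copies had their high values in the tables in which the 2-cell embryo markers were higher, and their relation to those markers was not tested. RLTR11A HOMER3518367, lower with FAOi and MYCi, was at 35.4 and 31.3 with siCtr and 8.94 and 5.396 with siMat2a. RLTR20A4 HOMER3702069 was also at 0 and 0.394 in Eed fl/- and 4.57 and 5.20 in Eed-/- cells and at 0 in all 4 sorted libraries. Levels were not tested between tables.

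**Figure D5:**
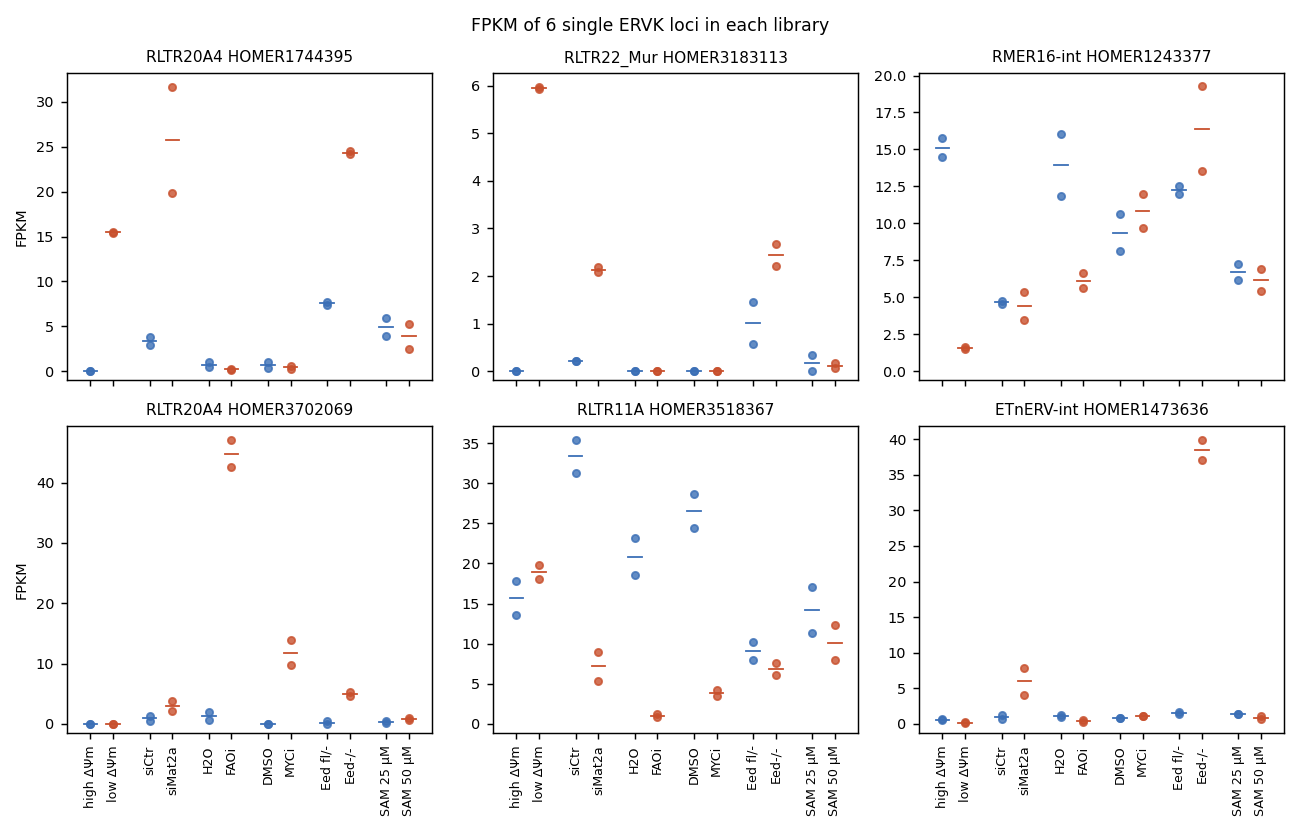
FPKM of 6 loci in each of the 24 libraries on linear axes, with first groups (controls; SAM 25 µM) in blue, second groups in orange and bars at the mean of 2 libraries. RLTR20A4 HOMER1744395 lay at 15.5 and 15.4 in qESCs and at 24.5 and 24.2 in Eed-/- cells, and RLTR20A4 HOMER3702069 at 42.6 and 47.1 with FAOi.

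Genes of the machinery that silences ERVs were read in the same libraries, 42 in the list and 41 tested. The list also holds Tet1 and Tet2, whose enzymes oppose DNA methylation, so that a lower gene of the list is not always a lower silencer. Tet1 and Tet2 are counted among the lower genes with FAOi, with MYCi and in Eed-/- cells. In qESCs 2 were higher and 2 lower, where the background was 14% and 6.45% of genes. Mphosph8, a HUSH subunit, was higher, at 5.57 and 6.75 against 11.0 and 10.3 FPKM (log2 fold 0.79, limma adjusted p = 0.00289). Tet1 was the other higher gene, at 19.2 and 19.8 against 29.1 and 27.7 FPKM (log2 fold 0.54, limma adjusted p = 0.0213). Dnmt3b and Dnmt3l, of the de novo DNA methylation complex, were lower. In 4 other comparisons many of the list were lower. With siMat2a 1 was higher and 25 lower (backgrounds 13.1% and 36.8%), with FAOi 0 and 36 (13.9% and 51.3%), with MYCi 0 and 39 (7.89% and 57.8%) and in Eed-/- cells 0 and 19 (24.2% and 12.1%). The median fold of the list was -1.07, -1.28, -1.15 and -0.34, where the medians over all genes tested were -0.63, -0.66, -0.65 and 0.11. Relative to the median gene the counts were 4 and 17, 3 and 28, 3 and 32, and 0 and 31. The lower genes in Eed-/- cells include, on either scale, Eed itself, the deleted gene (log2 fold -2.03, rescaled -2.14). Uhrf1, the partner of maintenance DNA methylation, went from 134 and 175 to 28.1 and 27.1 with FAOi (log2 fold -2.47, rescaled -1.68) and from 145 and 139 to 54.2 and 33.8 with siMat2a (log2 fold -1.73, rescaled -0.97), and it had -1.74 with MYCi (rescaled -0.97). Dnmt3l was the 1 gene higher with siMat2a, at 1.85 and 1.95 against 7.09 and 5.24 (log2 fold 1.63, rescaled 2.36), and the chromatin remodeller Smarcad1 fell in Eed-/- cells from 27.4 and 27.9 to 12.01 and 11.02 (log2 fold -1.26). Between the SAM doses 0 of the list passed with limma (backgrounds 0.389% and 0.493%). Whether these genes bear on the ERVK levels was not tested.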

How the data were processed

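Total RNA of 24 libraries, 2 per group, was measured, with groups taken from the submitters' labels. Per the paper's methods and the submitters' processing notes, the authors aligned reads to mm10 with TopHat2 2.1.1, removed duplicates with SAMtools 1.9, counted fragments without strand and in fractions over repeats of HOMER 4.10, NONCODE transcripts and Ensembl genes with featureCounts, and deposited FPKM calculated with edgeR, 1 table per experiment. No raw counts were analysed here, so that no count test was run. The paper gives 2 independent biological replicates per dataset but not their cultures, so p-values measure only the spread between these samples. ERCC values were used only as an alternative scale for the sorted cells.

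Family means and single loci were tested with limma 3.58.1 in R 4.3.3 (intensity trend, the 4 libraries of each comparison, two-sided), after pseudocounts of 0.01 and 0.5 FPKM. Genes with at least 0.1 FPKM in 2 or more libraries were tested on log2(FPKM + 0.1). Adjusted p (Benjamini-Hochberg, threshold 0.05) runs over all families, loci or genes tested. Differences of folds were contrasts in 1 fit of both tables. Rescaling was by the median of ratios over genes. The procedure was tested on simulated data, where most clearly changed families were recovered in every table, but a minority or none of a small number of strongly changed loci, so that single-locus counts, and counts of 0 above all, do not show that other loci were unchanged. Alternatives were scaling, filters, pseudocounts, robust variance, a replicate block, genes added to the fit, each family without its highest locus, and each library left out. The members and lists were chosen with earlier results of these data known.

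Families were named if past the threshold, with at most the 10 largest folds per direction, beside 26 families read in every comparison; where fewer than 3 passed, the 3 largest and 3 smallest folds of families with a mean of at least 0.05 FPKM were given as values. For loci these were the 5 largest and 3 smallest folds called without overlap, and the 5 highest per table. At most 5 silencing genes were named per comparison.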

Additional observations from a re-analysis of the deposited data

Results flagged for a closer look

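Of 70 named families, 20 had a fold in qESCs (low against high ΔΨm) that differed from the fold with siMat2a (limma contrast in 1 fit of both tables, adjusted p under 0.05, n = 2 libraries per group), 4 with the qESC fold above and 16 below. Over all repeat families tested, 2.02% passed above and 5.13% below, and of 237 ERVK families 5 and 28 did. Families were named partly because they were called in these same tables, so that the share among the 70 is no separate result. Above were RLTR49 with a difference of 1.36 on the log2 scale, ERVB4_3-I_MM-int with 0.94, ETnERV3-int with 0.73 and RLTR20B1 with 0.66. Relative to the median gene RLTR49 gave 0.57 (limma adjusted p = 0.0445) and ERVB4_3-I_MM-int 0.29, which no longer passed (limma adjusted p = 0.431). The last pair gave -0.042 and -0.11. The siMat2a fold of ERVB4_3-I_MM-int also turned without its highest locus.

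Below were ERVB4_2-I_MM-int with -1.89 and its LTR ERVB4_2-LTR_MM with -1.26, RLTR46A2 with -1.73, MMERVK10D3_LTR with -1.35, ETnERV2-int with -0.59, RLTR19 with -0.46 and RMER13A1 with -0.63. Of the RLTR10 kind, RLTR10-int differed by -0.89 and RLTR10D2 by -0.73. Of the RLTR44 and RLTR45 kind, RLTR44B differed by -1.13, RLTR44A by -0.87 and RLTR45 by -0.76. Of the RLTR13 kind, RLTR13B1 differed by -0.93, RLTR13D4 by -0.81, RLTR13C3 by -0.77 and RLTR13D6 by -0.58. Without 1 library, 1 to 66 of all 237 ERVK families tested passed in this contrast.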

How the results depend on the processing

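With 2 libraries per group and many families below 0.1 FPKM, small changes cannot be told from the spread. The number of families called depended on the scale. Rescaled to the median gene, counts went from 2 to 1 in qESCs, 28 to 163 with siMat2a, 38 to 211 with FAOi, 124 to 233 with MYCi and 0 to 1 between SAM doses, and loci from 0 to 1056 with siMat2a, 769 to 3310 with FAOi, 72 to 3954 with MYCi and 162 to 282 in the Eed lines. Folds turned there for ERVB4_3-I_MM-int (0.13) and ERVB7_3-LTR_MM (0.20) with siMat2a, RLTR17 (0.73), RLTR20C (0.66), RLTR44-int (0.15) and RLTRETN_Mm (0.13) with FAOi, RLTR13D5 (0.49), RLTR17 (0.71), RLTR44-int (0.18), RLTR9E (0.35) and RLTRETN_Mm (0.35) with MYCi, MMETn-int between SAM doses (0.20), and for the qESC minus siMat2a differences of ETnERV3-int (-0.042), RLTR20B1 (-0.11) and RLTRETN_Mm (-0.74). Differences that passed went from 0 to 4 for FAOi minus MYCi and from 33 to 133 for qESC minus siMat2a, and silencing genes from 4 to 19 in qESCs and 19 to 31 in the Eed lines. The ERCC scale gave 5 families and 12 differences in place of 2 and 33.

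The labels do not tie a replicate number to a shared culture, and deviations of same-numbered libraries correlated over families between -0.107 and 0.284. With that number as a replicate block, families called were 0 in qESCs, with siMat2a, with MYCi and in the Eed lines and 18 with FAOi, loci 12 with siMat2a, 318 with FAOi and 0 with MYCi and in the Eed lines, differences for qESC minus siMat2a 1, and silencing genes 2 in qESCs, 14 with siMat2a and 38 between SAM doses. With crossed numbers, chosen after seeing the data, qESCs gave 0 families and 0 loci and FAOi 0 families.

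Without a filter on low values, families were 1 in qESCs, 1 with siMat2a, 0 with FAOi and 14 in the Eed lines, and loci 0 in qESCs, with FAOi, with MYCi and in the Eed lines. A minimum of 0.1 FPKM gave 0 loci in each of these 4, and a pseudocount of 0.1 gave 0 with FAOi, MYCi and Eed and 66 differences for qESC minus siMat2a. The robust fit gave 6 loci in qESCs, 487 with FAOi and 0 in the Eed lines. Without each family's highest locus, families were 48 with siMat2a, 19 with FAOi and 14 in the Eed lines, and ERVB4_3-I_MM-int (1.19, siMat2a) and RLTR3_Mm (0.85, MYCi) turned. In 1 fit with genes, families were 6 in qESCs, 21 with FAOi, 10 with MYCi and 3 in the Eed lines.

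Leaving out 1 library gave 0 to 0 families in qESCs, with MYCi, in the Eed lines and between SAM doses, 0 to 27 with siMat2a and 0 to 67 with FAOi. Loci ranged over 0 to 4 in qESCs, 26 to 474 with siMat2a, 0 to 1865 with FAOi, 30 to 568 with MYCi and 0 to 0 in the Eed lines and between SAM doses. Differences ranged over 0 to 0 for FAOi minus MYCi and 1 to 66 for qESC minus siMat2a, and silencing genes over 1 to 4 in qESCs, 0 to 41 with siMat2a, 6 to 40 with FAOi, 34 to 41 with MYCi, 9 to 25 in the Eed lines and 0 to 0 between SAM doses. The cause of these changes was not tested, beside the smaller number of libraries. Over the 94 named family results called, 1128 alternative values gave 562 with the same direction and call, 557 with the direction only and 9 turned. For 27 loci, 96 of 233 values kept the call and 137 kept only the direction.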
